A study of Mus musculus with 27 samples.

Results

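The temporal series of mouse calvarial osteoblasts holds 27 RNA sequencing profiles from 9 time points between day 2 and day 18 of differentiation, and the comparison described here is that of the 3 profiles of day 8 with the 3 profiles of day 10, 6 of the 27. The cells of both days came from the skull vault of neonatal C57BL/6J-Col3.6 CFP mice aged 5 to 9 days, which carry cyan fluorescent protein under the Col3.6 promoter, a fragment of the type I collagen promoter that is active in cells of the osteoblast lineage. They were released from the bone with trypsin and collagenase P, grown for 4 days in DMEM, sorted for the fluorescent protein, and returned to culture in αMEM with ascorbic acid, 4 mM β-glycerol phosphate and 10% fetal bovine serum, so that the groups differ in the labels only by the day of collection. The number of animals behind a culture is not given in the sources used here, and a sort on this promoter takes early as well as late cells of the lineage. The 3 profiles of a day carried 1 barcode and were read in 3 lanes, and they are treated here as repeated reads of 1 library, although the titles number them as replicates and the study's methods describe triplicate samples. Of the 37991 genes in the files, 13620 had 30 or more estimated counts summed over the 6 profiles and were compared.

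Calvarial cells in ascorbic acid and a phosphate donor pass through an ordered programme. Proliferating precursors leave the cell cycle and deposit a collagen matrix, the matrix is then modified by proteoglycans and made ready for mineral by alkaline phosphatase, and the osteocalcin genes and osteocyte genes such as Dmp1 and Phex follow late. Wnt and BMP signals drive this programme, secreted antagonists restrain it, and the same stromal precursors can take up adipocyte genes instead.

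Both days had the lowest depth of the series, with 29775676 counts for day 8 (9721795 to 10027587 per lane) and 22470146 for day 10 (7331125 to 7574664 per lane), against 42280394 to 62009116 for the other 7 time points. Day 8 thus held 1.33 times the counts of day 10, and the 2 mitochondrial ribosomal RNAs took 23.0% of the counts on day 8 and 24.4% on day 10. A floor of 3 counts corresponded to 0.101 CPM on day 8 (CPM, counts per 1000000) and 0.134 CPM on day 10. The floor is scaled by the total counts of the library alone. The CPM levels of genes are scaled by its upper-quartile factor as well. Over genes with whole-number counts the lanes of a day agreed within sampling noise, the ratio of chi-square to its degrees of freedom being 1.01 for day 8 and 1.02 for day 10. The 3 lanes were therefore summed and counted as 1 sample, and with 1 sample a day the step between these 2 libraries could not be tested on its own. Each change is given as the log2 ratio of day 10 over day 8 after upper-quartile scaling, with an exact 95% interval that covers counting error only. Differences between cultures, dishes or library preparations cannot be told apart from the day.

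Between day 8 and day 10, 737 genes were at least 2-fold higher and 526 at least 2-fold lower with an interval clear of 0, which is 5.41% and 3.86% of the 13620 genes compared, and such genes are referred to as called. The median change over all genes was 0.015 on the log2 scale, and 12357 genes were not called. Among the 5967 genes with a mean of 20 CPM or more, 131 were called higher and 81 lower, or 3.55% either way. Just past the 2-fold threshold were Sc4mol at -1.0005 and Glis3 at 1.007, and just short of it were Fdps at -0.999 and Gas6 at 0.998. The named genes are grouped by function in 42 lists, which were chosen with earlier results of these data known, so each list is described by its counts and median, to be read against the 5.41% higher, 3.86% lower and median of 0.015 of all genes. Both shares were smaller among the genes of 20 CPM or more, so lists of high and of low genes do not have the same background. Whether a change reflects more cells of a kind or more RNA per cell cannot be told apart in bulk RNA.

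**Figure D1:**
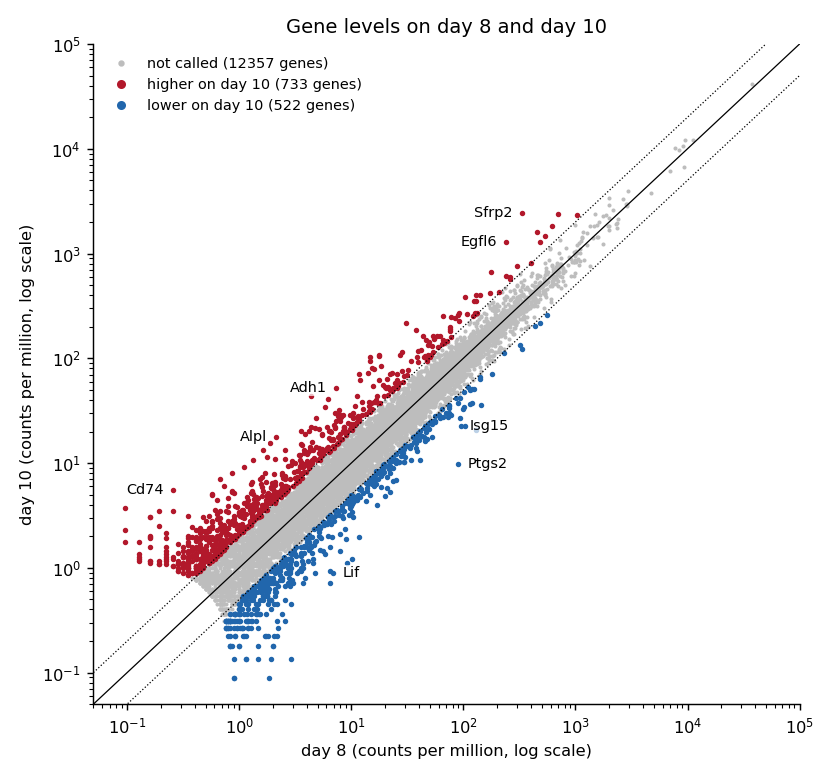
Each point is 1 of the 13612 genes with counts on both days, with its level on day 8 on the horizontal axis and on day 10 on the vertical axis, both in CPM on log scales. The solid line marks equal levels and the dotted lines 2-fold differences, and the 733 red and 522 blue genes are the called genes plotted. Sfrp2 and Egfl6 lie above the upper line at high levels, and Ptgs2 and Lif lie below the lower line.

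The step from day 8 to day 10 held more called genes than either neighbouring step under the same rule. Between day 6 and day 8, 86 of 5924 genes of 20 CPM or more were called (1.45%), and between day 10 and day 12, 6 of 5943 (0.101%). These 3 steps share libraries, and the difference between them was not tested. The neighbouring libraries of day 6 and day 12 take no part in the contrast of day 8 with day 10, and they are set against each other here as a choice made after the values were seen. From day 6 to day 12, 700 of the 737 genes called higher (94.98%) were also higher, with a median log2 change of 2.27, where 50.5% of all genes were higher. Of the 526 genes called lower, 466 (88.6%) were lower, with a median of -1.57, where 49.4% of all genes were lower. At least 2-fold changes in the same direction were seen in 602 and 358 of them.

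**Figure D2:**
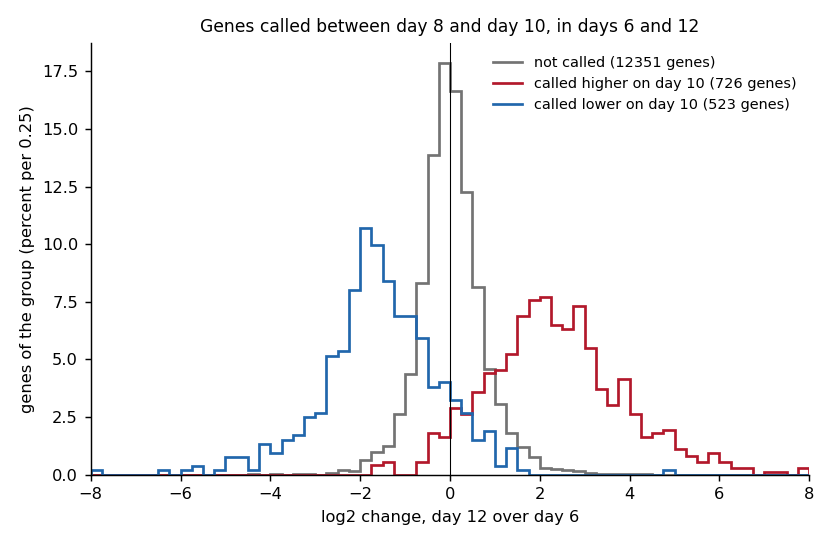
The horizontal axis is the log2 change from day 6 to day 12 and the vertical axis the percent of each group of genes per step of 0.25, with values beyond the axis drawn in the outermost steps and genes at 0 on day 6 or day 12 left out. Genes called higher on day 10 are centred to the right of 0, genes called lower to the left, and genes not called around 0.

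For an error that includes differences between libraries, a smooth curve in day was fitted through all 9 libraries by edgeR's quasi-likelihood method, and the difference between its values on day 10 and day 8 was tested. It gave an adjusted p under 0.05 for 2607 genes higher on day 10 (19.1%) and 2333 lower (17.1%) of the 13618 genes that could be fitted. This test reads the slope of a curve to which the day 8 and day 10 libraries themselves contribute, so it is not separate evidence of the step. It passed in the same direction for 534 of the 737 genes called higher (72.5%) and for 325 of the 526 called lower (61.8%).

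Among genes of 20 CPM or more, the rise of E030010A14Rik (chromosome 19, 24748498 to 24754151, NCBIM37) ranked first. Levels are given lane by lane as TPM, the authors' transcript abundance per 1000000 transcripts, scaled by the upper quartile of each lane. E030010A14Rik was at 2.93, 2.74 and 3.49 TPM on day 8 and 29.4, 29.7 and 30.1 TPM on day 10, a log2 change of 3.34 (3.08 to 3.61) or 10.1-fold, and no lane of one day reached a lane of the other. Its neighbour Pgm5, which encodes a phosphoglucomutase-like protein of cell adhesions, lies on the opposite strand with its 3′ end 3354 bases away and was itself among the 12 largest rises. Pgm5 was at 11.9, 10.4 and 7.704 TPM on day 8 and 48.1, 53.4 and 54.2 TPM on day 10, a log2 change of 2.68 (2.54 to 2.83). The lanes of the days did not overlap for either gene.

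Of the other 10 of the 12 largest rises, 4 encode secreted or matrix proteins other than the complement component C3. Sfrp2 encodes a secreted Frizzled-related protein that binds Wnt ligands, and it was at 291, 307 and 293 TPM on day 8 and 2132, 2098 and 2131 TPM on day 10, 7.43-fold higher on day 10. Its counts were not whole numbers, since reads it shares with other genes were divided, and its log2 change was 2.89 (2.86 to 2.92). Egfl6, an epidermal growth factor-like matrix protein, was at 154, 154 and 148 TPM on day 8 and 795, 771 and 769.8 TPM on day 10, a change of 2.41 (2.37 to 2.45). Lect1, the chondromodulin of cartilage that inhibits blood vessel growth, was at 9.03, 9.68 and 8.73 TPM on day 8 and 50.8, 49.8 and 48.5 TPM on day 10. Pi15, a secreted peptidase inhibitor, was at 7.28, 7.74 and 6.44 TPM on day 8 and 50.7, 47.4 and 45.9 TPM on day 10. The lanes of the days lay far apart for each of these genes, with log2 changes between 2.41 and 2.89.

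Another 5 encode enzymes or membrane receptors. Adh1, an alcohol dehydrogenase that also oxidises retinol, was at 12.05, 12.7 and 11.6 TPM on day 8 and 80.6, 81.7 and 82.8 TPM on day 10, 7.12-fold higher. Steap4, a metalloreductase of the cell surface and endosomes, was at 7.28, 8.08 and 8.28 TPM on day 8 and 51.8, 52.7 and 53.4 TPM on day 10. Prlr, the prolactin receptor, was at 3.06, 2.303 and 1.32 TPM on day 8 and 17.1, 16.3 and 23.4 TPM on day 10, and its lanes on day 8 spread over more than 2-fold. Gfra2, a co-receptor for neurturin, was at 9.49, 10.4 and 13.7 TPM on day 8 and 66.3, 71.3 and 68.8 TPM on day 10. Scara5, a scavenger receptor that takes up ferritin, was at 7.24, 8.08 and 7.72 TPM on day 8 and 42.7, 44.2 and 46.1 TPM on day 10. Their log2 changes ran from 2.58 for Scara5 to 2.83 for Adh1. The complement component C3 closes the set and is described with its pathway.

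**Figure D3:**
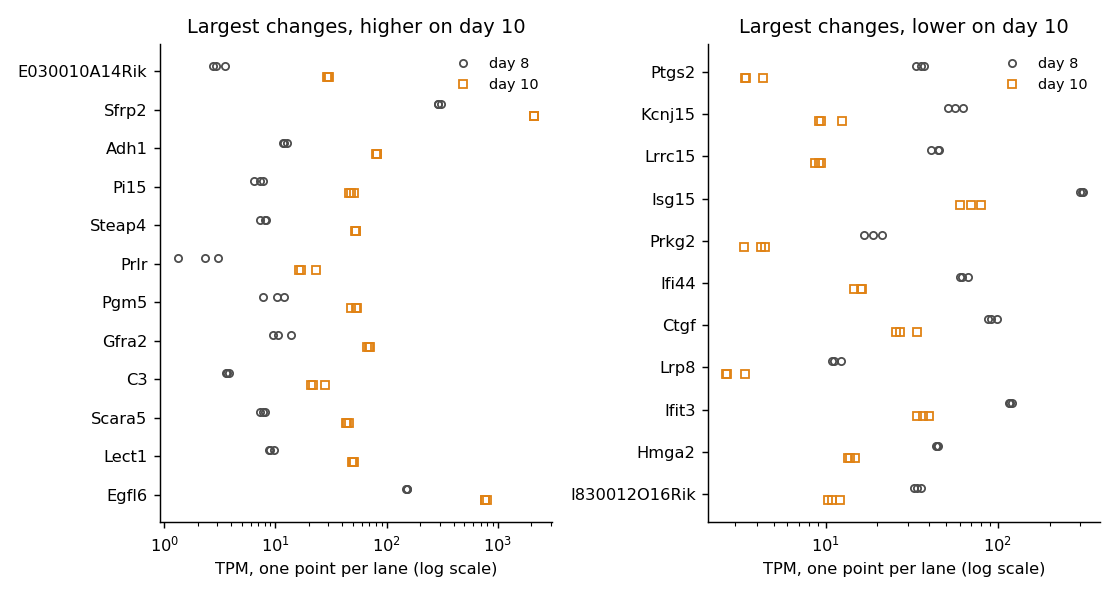
Levels in TPM per lane on log axes for the 12 largest rises and 11 of the 12 largest falls among protein-coding genes of 20 CPM or more, with circles for the 3 lanes of day 8 and squares for the 3 lanes of day 10. In every gene shown the lanes of day 8 and day 10 are separate, and the lanes of a day lie close together except in low genes such as Prlr.

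The largest fall among genes of 20 CPM or more was that of Ptgs2, the inducible cyclooxygenase that makes prostaglandins. It was at 37.5, 33.5 and 35.9 TPM on day 8 and 4.33, 3.46 and 3.42 TPM on day 10, 9.21-fold lower on day 10 with a log2 change of -3.204 (-3.41 to -3.004), and its level had already come down from 977 CPM on day 2 to 90.0 CPM on day 8 before it reached 9.77 CPM on day 10. Kcnj15, an inwardly rectifying potassium channel, was at 51.6, 63.1 and 56.6 TPM on day 8 and 9.39, 9.12 and 12.4 TPM on day 10, a change of -2.66 (-2.8002 to -2.52). Unlike Ptgs2 it had been higher on day 6 (257 CPM) than on day 2 (45.6 CPM). Lrrc15, a leucine-rich repeat protein of the cell surface, was at 44.8, 45.3 and 40.7 TPM on day 8 and 9.43, 9.105 and 8.71 TPM on day 10, 4.57-fold lower.

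Ctgf, a matricellular growth factor whose counts include shared reads, was at 91.2, 88.1 and 98.7 TPM on day 8 and 33.9, 26.9 and 25.6 TPM on day 10, a log2 change of -1.69 (-1.804 to -1.59). It was lower on day 10 than on any earlier day and was higher again on day 14, at 79.5 CPM. Hmga2, a chromatin protein of growing embryonic tissues, was at 44.5, 44.99 and 43.7 TPM on day 8 and 13.6, 14.9 and 13.8 TPM on day 10, and it fell along the curve with an edgeR quasi-likelihood adjusted p of 3.3e-07. Prkg2, a cGMP-dependent protein kinase, was 3.86-fold lower and Lrp8, a receptor for reelin, 3.14-fold lower. Also among the 12 largest falls were Isg15, Ifi44, Ifit3 and I830012O16Rik, which respond to interferon.

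Interferons signal through STAT proteins to a sequence called the interferon-stimulated response element, and many of the genes induced through it encode antiviral proteins. Of 20 interferon-stimulated genes listed, all passed the count filter and all were below 0, 14 were called lower and none higher, and the median log2 change was -1.26 beside 0.015 for all genes. The curve was lower with an adjusted p under 0.05 for 19 of them. With a stiffer curve of 2 degrees of freedom the fitted change turned positive for Isg15 (0.19), Ifi44 (0.15), Ifit3 (0.44) and I830012O16Rik (0.36), the last of which is outside the list. The summed level of the list was 1528 to 1559 TPM in the lanes of day 8 and 566 to 590.3 TPM in those of day 10. It had climbed from 72.8 TPM on day 2 through 275 on day 4 and 1093 on day 6, so that the day 8 library held the highest sum of the 9, and it went on to 450.3 on day 12 and 258 on day 16.

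Matches to this element were searched in the 250 bases before the gene start, which are shown for Isg15, Ifit1, Ifit3 and Rsad2, which were all called lower. The sequences are from RefSeq (GRCm38.p6), 5′ to 3′ on the strand of the gene, and capitals mark matches on either strand to 2 copies of GAAA separated by any 2 bases, some of which overlap. Isg15 (chr4:156200819-156201068, minus strand) holds 3 overlapping matches, Ifit1 (chr19:34640639-34640888, plus strand) and Ifit3 (chr19:34583279-34583528, plus strand) hold 2 each, and Rsad2 (chr12:26456453-26456702, minus strand) holds 1.
Isg15: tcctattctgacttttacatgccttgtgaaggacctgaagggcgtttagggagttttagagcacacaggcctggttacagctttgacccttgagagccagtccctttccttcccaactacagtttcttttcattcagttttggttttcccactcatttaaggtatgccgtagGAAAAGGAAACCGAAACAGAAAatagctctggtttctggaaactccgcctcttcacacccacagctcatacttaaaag
Ifit1: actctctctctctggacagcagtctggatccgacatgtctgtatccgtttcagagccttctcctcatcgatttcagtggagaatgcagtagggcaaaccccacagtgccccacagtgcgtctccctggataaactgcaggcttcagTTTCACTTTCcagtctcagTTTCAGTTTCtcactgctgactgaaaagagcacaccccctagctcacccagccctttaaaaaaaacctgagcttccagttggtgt
Ifit3: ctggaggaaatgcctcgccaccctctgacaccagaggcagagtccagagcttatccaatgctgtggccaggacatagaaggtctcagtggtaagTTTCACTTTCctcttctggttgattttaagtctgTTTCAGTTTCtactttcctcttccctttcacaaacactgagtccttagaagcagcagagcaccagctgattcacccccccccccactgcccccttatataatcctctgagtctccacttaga
Rsad2: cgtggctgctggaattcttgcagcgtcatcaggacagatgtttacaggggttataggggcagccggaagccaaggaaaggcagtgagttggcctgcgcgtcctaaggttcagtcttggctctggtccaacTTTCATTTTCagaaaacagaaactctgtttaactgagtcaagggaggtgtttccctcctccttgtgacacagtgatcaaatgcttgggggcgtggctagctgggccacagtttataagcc

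Of the 15 listed genes with a window in that table, 9 held this match (60.0%), and 936 of all 27025 genes did (3.46%). The members with a match were Cxcl10, Gbp2, Gbp3, Ifit1, Ifit3, Irgm1, Isg15, Oas1a and Rsad2. A match is a description of letters in the window and not a measured site.

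Isg15, a ubiquitin-like modifier, was at 310.1, 307 and 299.9 TPM on day 8 and 79.3, 60.4 and 69.7 TPM on day 10, 4.23-fold lower with a log2 change of -2.08 (-2.22 to -1.94). Cxcl10, a chemokine induced by interferon, was at 21.9, 23.4 and 20.7 TPM on day 8 and 4.26, 3.36 and 5.48 TPM on day 10, and its change of -2.56 (-3.05 to -2.11) was the largest fall of the list. The RNA-binding Ifit proteins did not move alike. Ifit1, which shares reads, was at 218, 215 and 215 TPM on day 8 and 75.4, 79.96 and 75.2 TPM on day 10, and Ifit3, also with shared reads, at 118, 122 and 116 TPM on day 8 and 36.7, 39.6 and 33.8 TPM on day 10, while Ifit2 was at 11.01, 13.3 and 12.4 TPM on day 8 and 10.9, 11.6 and 12.1 TPM on day 10 with a change of -0.07 (-0.22 to 0.09) and overlapping lanes. I830012O16Rik, a close copy of Ifit3 on the same chromosome, also shares reads. It was at 32.8, 35.8 and 34.1 TPM on day 8 and 10.3, 10.9 and 12.1 TPM on day 10. Ifi44 was at 67.1, 61.6 and 60.6 TPM on day 8 and 16.1, 14.6 and 16.3 TPM on day 10, a change of -1.79 (-1.92 to -1.66).

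Regulators of the response were lower as well, some by less than 2-fold. Irf7, the transcription factor that amplifies interferon production, was at 31.5, 31.998 and 33.5 TPM on day 8 and 13.1, 15.2 and 17.6 TPM on day 10. Usp18, which removes Isg15 from proteins, was at 42.4, 48.9 and 48.7 TPM on day 8 and 15.8, 16.7 and 16.2 TPM on day 10. The RNA sensors Ddx58, with shared reads, and Ifih1 stayed under 2-fold, with log2 changes of -0.71 (-0.78 to -0.64) and -0.898 (-1.01 to -0.79). Apol9b, a low gene with shared reads outside the list, was at 8.48, 7.91 and 7.31 TPM on day 8 and 1.13, 1.15 and 0.282 TPM on day 10. From day 6 to day 12 the changes of Isg15 and Ifit3 were -2.53 and -1.59, measured in libraries other than those of day 8 and day 10.

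**Figure D4:**
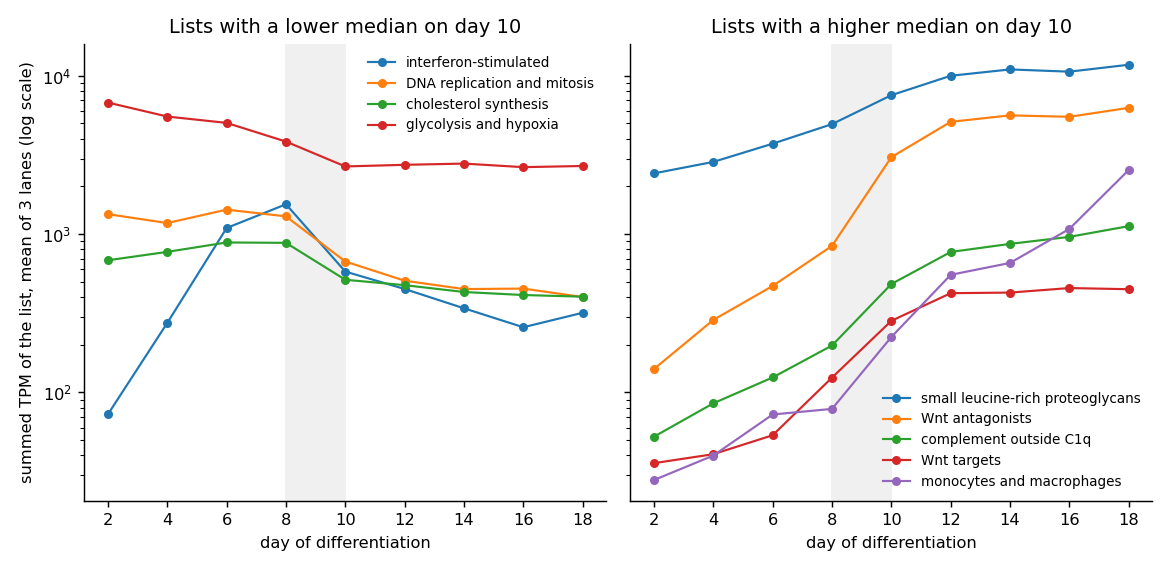
The summed TPM of a gene list, as the mean of 3 lanes of 1 library, is plotted on a log axis against day of differentiation, with the interval from day 8 to day 10 shaded. On the left the interferon-stimulated sum climbs to day 8 and then drops from 1544 to 579.9 TPM, and the cell cycle and cholesterol sums drop in the same interval. On the right the Wnt antagonist sum rises from 843 to 3064 TPM and the macrophage sum keeps rising to day 18.

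Genes of DNA replication and mitosis were lower on day 10 as a group. All 28 listed genes passed the count filter and lay below 0, 8 were called lower and none higher, the median was -0.89, and the curve was lower with an adjusted p under 0.05 for all 28. Their summed level was 1287 to 1311 TPM on day 8 and 656 to 686 TPM on day 10, after a span of 1175 to 1428 TPM from day 2 to day 6. Aurka, a mitotic kinase of the centrosome, was at 18.6, 19.5 and 17.4 TPM on day 8 and 7.54, 7.16 and 7.24 TPM on day 10, a change of -1.63 (-1.91 to -1.35). Tk1, the thymidine kinase of dividing cells, was at 38.7, 55.2 and 54.004 TPM on day 8 and 16.7, 16.6 and 19.1 TPM on day 10. Plk1, a kinase of mitotic entry with shared reads, was at 35.3, 34.2 and 36.5 TPM on day 8 and 12.7, 13.5 and 14.8 TPM on day 10, and Rrm2, the regulated subunit of ribonucleotide reductase, at 58.2, 58.2 and 59.7 TPM on day 8 and 23.97, 22.5 and 23.4 TPM on day 10. Cdc20 and Ube2c, which act with the anaphase-promoting complex, had changes of -1.25 (-1.46 to -1.05) and -1.13 (-1.27 to -0.99), and Birc5 and Ccna2 had -1.25 (-1.502 to -1.01) and -1.03 (-1.13 to -0.94), where Ube2c, Birc5 and Ccna2 share reads. The proliferation marker Mki67 was at 56.1, 54.9 and 54.02 TPM on day 8 and 28.9, 29.5 and 29.5 TPM on day 10, a change of -0.85 (-0.91 to -0.804) that did not reach 2-fold, and Top2a had a log2 change of -0.85 (-0.91 to -0.78).

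Many mitotic genes carry a short element called the cell-cycle genes homology region, which is bound by repressor complexes in resting cells. Its core TTTGAA was searched on both strands of the same 250 bases, and the windows of Cdc20 (chr4:118437344-118437593, minus strand) and Ube2c (chr2:164769679-164769928, plus strand) are shown, again from RefSeq (GRCm38.p6) with the match in capitals, because both genes were called lower and hold it.
Cdc20: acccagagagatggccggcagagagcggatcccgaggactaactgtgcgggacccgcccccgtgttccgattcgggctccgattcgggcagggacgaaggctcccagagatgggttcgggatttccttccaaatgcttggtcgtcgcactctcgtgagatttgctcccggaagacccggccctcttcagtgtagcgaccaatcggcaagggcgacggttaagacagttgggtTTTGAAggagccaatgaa
Ube2c: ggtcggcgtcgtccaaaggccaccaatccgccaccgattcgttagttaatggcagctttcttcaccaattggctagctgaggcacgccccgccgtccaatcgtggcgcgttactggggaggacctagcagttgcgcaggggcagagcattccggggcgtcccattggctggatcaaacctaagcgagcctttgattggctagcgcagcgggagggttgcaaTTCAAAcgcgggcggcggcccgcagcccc

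Among the 25 listed genes with a window, 8 held the core (32.0%), and 18.3% of all genes did. This motif is short and common, and 17 members with a window, Aurka, Plk1 and Tk1 among them, held no match in it.

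Cholesterol synthesis was lower by a smaller step that was shared across the pathway. Of 23 listed genes 22 were compared, all 22 lay below 0, 2 were called lower, and the median was -0.65, while Hmgcs1 was not analysed here. The curve was lower with an adjusted p under 0.05 for 20 of them. Idi1, an isomerase of the isoprenoid branch with shared reads, was at 46.8, 44.8 and 42.4 TPM on day 8 and 21.1, 18.4 and 18.3 TPM on day 10, a change of -1.09 (-1.21 to -0.98), and Sc4mol, a sterol demethylase also with shared reads, at 56.1, 56.5 and 59.2 TPM on day 8 and 34.8, 26.5 and 27.9 TPM on day 10, a change of -1.0005 (-1.12 to -0.88) that lies at the threshold. The highest level of the list on day 8 was that of Cyp51, at 106, 111 and 104 TPM on day 8 and 64.1, 61.1 and 52.6 TPM on day 10. Srebf2, a transcription factor that activates the pathway, had a log2 change of -0.27 (-0.35 to -0.19). Of the 15 listed genes with a promoter window, 1 held the sterol response element TCACNCCAC, which 1.22% of all genes held, and that was Hmgcs1, which has no value here. None of the listed genes with both a window and a measured change held it.

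Glycolytic genes were also below 0 in most cases, with 18 of 21 compared and a median of -0.36, but none was called lower. Gapdh had a log2 change of -0.57 (-0.603 to -0.54), Eno1 one of -0.52 (-0.57 to -0.48) and Pkm2 one of -0.78 (-0.83 to -0.73), of which Gapdh and Eno1 share reads. A pair of hypoxia-induced members went the other way and was called higher. Pdk1, which diverts pyruvate from the mitochondria, was at 4.203, 7.55 and 2.89 TPM on day 8 and 7.54, 7.16 and 5.83 TPM on day 10, with TPM lanes that overlap between the days although its counts were 269 and 492, and Ndrg1 was at 15.03, 13.7 and 13.2 TPM on day 8 and 44.1, 39.1 and 41.996 TPM on day 10, a change of 1.65 (1.52 to 1.78).

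Among 15 genes of the osteoblast lineage, 12 were compared and the median was 0.38, with 1 called higher and 1 lower. The one called higher was Alpl, the alkaline phosphatase that frees phosphate for mineral, at 1.13, 1.89 and 1.34 TPM on day 8 and 12.7, 10.6 and 11.8 TPM on day 10, 8.33-fold higher with a change of 3.06 (2.68 to 3.45). It had been at 14.2 CPM on day 2 and 0.672 CPM on day 6, and stayed between 17.7 and 24.5 CPM from day 10 to day 18. Msx2, a homeobox factor of early skull precursors, was the one called lower, at 54.8, 55.2 and 53.3 TPM on day 8 and 21.5, 19.003 and 18.04 TPM on day 10 with a change of -1.43 (-1.56 to -1.302). Runx2, the master regulator of the lineage, with shared reads, was at 53.7, 46.2 and 50.6 TPM on day 8 and 52.9, 53.04 and 52.5 TPM on day 10, a log2 change of 0.22 (0.16 to 0.27), and 1 lane of day 8 lay above those of day 10. Sp7, the osterix gene that acts after Runx2, had 116 counts on day 8 and 130 on day 10, the order in which paired counts are given from here on, and a change of 0.66 (0.29 to 1.03).

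The abundant matrix genes of the lineage stayed under 2-fold. Col1a1 was at 2929, 2965 and 2925 TPM on day 8 and 3263, 3262 and 3244 TPM on day 10 and Col1a2 at 2438, 2470 and 2428 TPM on day 8 and 3095, 3082 and 3050 TPM on day 10, changes of 0.22 (0.21 to 0.22) and 0.39 (0.38 to 0.4004) whose narrow intervals reflect the number of counts and no error between cultures. Sparc, a collagen-binding protein, was at 11380, 11568 and 11402 TPM on day 8 and 14341, 14365 and 14341 TPM on day 10. Spp1, osteopontin, was at 595, 588 and 567 TPM on day 8 and 297, 274 and 285 TPM on day 10, a change of -0.95 (-0.997 to -0.896) just under 2-fold. The late markers were low on both days. Ibsp had 24 and 26 counts, Bglap2 14 and 15, and Bglap 1 and 2, and they were not detectably different, whereas Ibsp reached 88.2 CPM and Bglap2 33.04 CPM on day 18.

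Of 14 genes of mineralisation and the osteocyte, 10 were compared, with 2 called higher, 1 lower and a median of -0.21. Phex, an endopeptidase that lowers phosphate loss through Fgf23, was at 1.78, 1.68 and 1.46 TPM on day 8 and 6.58, 6.29 and 6.89 TPM on day 10, a change of 2.46 (2.201 to 2.73), and it continued from 26.8 CPM on day 10 to 139 CPM on day 18. Dmp1, an acidic matrix phosphoprotein, was at 0.657, 0.812 and 0.858 TPM on day 8 and 1.56, 1.74 and 1.34 TPM on day 10 with 40 and 58 counts, a change of 1.03 (0.43 to 1.65). Slc20a1, a sodium-phosphate cotransporter with shared reads, was called lower at 28.4, 26.9 and 32.2 TPM on day 8 and 12.02, 9.48 and 14.5 TPM on day 10, while its relative Slc20a2 had a log2 change of -0.18 (-0.33 to -0.03). Enpp1 and Ank, which raise the mineralisation inhibitor pyrophosphate, were lower by less than 2-fold, with -0.45 (-0.58 to -0.33) and -0.56 (-0.68 to -0.44). Mepe, Sost and Fgf23 had 0 counts on both days, which allows 0.101 CPM on day 8 and 0.134 CPM on day 10.

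Small leucine-rich proteoglycans bind collagen fibrils and set their diameter and growth factor content. All 11 members compared were above 0, 4 were called higher, the median was 0.91, and the curve was higher with an adjusted p under 0.05 for all 11. Decorin (Dcn) was at 564, 571 and 561 TPM on day 8 and 1486, 1474 and 1442 TPM on day 10, a change of 1.43 (1.402 to 1.46). Ogn, osteoglycin, was at 319, 331 and 329 TPM on day 8 and 858, 838 and 818 TPM on day 10, and Prelp at 229.6, 233 and 235 TPM on day 8 and 510.1, 482 and 492 TPM on day 10. Keratocan (Kera) had 30 and 85 counts and was at 0.788, 0.774 and 1.03 TPM on day 8 and 2.54, 4.21 and 3.25 TPM on day 10. Biglycan (Bgn), the highest of the list in TPM, had a log2 change of 0.07 (0.06 to 0.08), and Fmod one of 0.897 (0.87 to 0.92), short of 2-fold.

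Collagens and their processing enzymes gave 2 called higher and 2 lower of 23 compared, with a median of 0.14. Col14a1, which coats collagen fibrils, was at 28.9, 29.7 and 26.8 TPM on day 8 and 102, 104 and 102 TPM on day 10, a change of 1.88 (1.82 to 1.94), and Col5a3, a minor fibrillar chain, at 3.87, 4.002 and 3.75 TPM on day 8 and 8.42, 9.898 and 8.69 TPM on day 10. The lysyl oxidase family was divided, since Lox had a log2 change of -0.02 (-0.04 to 0.001) while Loxl2, with shared reads, was at 153, 153 and 152 TPM on day 8 and 65.7, 64.5 and 67.5 TPM on day 10 and Loxl4 at 5.63, 5.13 and 5.22 TPM on day 8 and 1.95, 3.66 and 2.14 TPM on day 10. Among 20 elastic fibre and matricellular genes, 3 were called higher and 2 lower, and the median of -0.09 lay near 0. Tropoelastin (Eln) was at 6.08, 4.47 and 5.48 TPM on day 8 and 15.9, 18.8 and 17.7 TPM on day 10 and the microfibril protein Mfap2 at 108, 103 and 105 TPM on day 8 and 209.9, 205 and 204 TPM on day 10. The CCN family of matricellular proteins went both ways, with Nov at 102, 107 and 105 TPM on day 8 and 384, 379 and 383 TPM on day 10, Ctgf lower as given above, and Cyr61 at 199, 200.4 and 201 TPM on day 8 and 96.99, 97.4 and 90.6 TPM on day 10. In cartilage genes (median 1.24) 4 of 7 compared were called higher, namely Comp at 9.78, 8.12 and 7.76 TPM on day 8 and 43.8, 43.3 and 41.7 TPM on day 10, Lect1, Col9a1 with a change of 1.24 (0.74 to 1.75) and Col10a1 with 1.36 (0.57 to 2.18), while Col2a1 had a log2 change of -0.27 (-0.33 to -0.22) and Sox9 one of 0.33 (0.26 to 0.39). Of 14 matrix proteases and inhibitors compared (median 0.39), Mmp16 alone was called, at 98.2, 86.4 and 82.7 TPM on day 8 and 162, 182 and 165 TPM on day 10.

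Of 11 secreted Wnt antagonists 7 were compared, 4 were above 0 and 3 below, 3 were called higher, all of the secreted Frizzled-related family, and the median was 0.98. Sfrp1 was at 227, 235 and 231 TPM on day 8 and 664, 657 and 648 TPM on day 10, a change of 1.56 (1.53 to 1.58), and Sfrp4 at 2.87, 1.87 and 1.27 TPM on day 8 and 4.29, 5.02 and 5.59 TPM on day 10, beside Sfrp2 above. The Dickkopf genes Dkk2 and Dkk3 had log2 changes of -0.27 (-0.37 to -0.17) and -0.07 (-0.11 to -0.04), and Sostdc1, which also binds BMPs, was the lowest of the list with -0.75 (-1.08 to -0.42). The summed level of the antagonists was 827 to 864 TPM on day 8 and 3043 to 3086 TPM on day 10, and Sfrp2 and Sfrp1 carried this rise. Of 9 genes compared from a list of Wnt targets that also holds the R-spondins, all were above 0 and 5 were called higher, with a median of 1.25. The R-spondins are secreted proteins that strengthen Wnt signals and account for 2 of the 5, with Rspo3 at 80.7, 77.9 and 76.1 TPM on day 8 and 181, 183 and 189 TPM on day 10 and Rspo2 at 8.46, 8.16 and 7.63 TPM on day 8 and 19.5, 18.98 and 17.3 TPM on day 10. Their receptor Lgr5, with shared reads, was at 19.2, 20.8 and 22.05 TPM on day 8 and 58.8, 56.9 and 53.5 TPM on day 10, a change of 1.52 (1.43 to 1.61). Nkd1, a feedback inhibitor, was at 2.44, 2.23 and 2.24 TPM on day 8 and 8.82, 7.57 and 7.62 TPM on day 10, and Tcf7, with 24 and 46 counts, had a log2 change of 1.43 (0.69 to 2.21). Axin2, a widely used target of the pathway, had one of 0.09 (-0.25 to 0.43).

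In the BMP and TGF-β group, 4 of 23 were called higher and 1 lower, with a median of 0.31. The summed level of the list was 781 to 794 TPM on day 8 and 742 to 789 TPM on day 10. Bmp4, a ligand that promotes bone formation, was at 50.7, 48.9 and 47.2 TPM on day 8 and 105, 103 and 95.3 TPM on day 10, and Tgfb2 at 12.6, 12.01 and 12.2 TPM on day 8 and 29.6, 27.6 and 27.1 TPM on day 10. Tgfb3 had a log2 change of -0.44 (-0.499 to -0.38) and the activin subunit Inhba one of -0.48 (-0.54 to -0.42). Noggin (Nog), an antagonist of BMP, had 7 and 27 counts and Bmp6, with shared reads, 133 and 204.

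Insulin-like growth factor and imprinted genes were largely above 0, with 12 of 16, 5 called higher and a median of 0.51. Igf2, a fetal growth factor expressed from the paternal copy, was at 895, 909.8 and 919.5 TPM on day 8 and 2022, 1981 and 2000 TPM on day 10, a change of 1.18 (1.16 to 1.202). The binding proteins Igfbp5 and Igfbp4 were at 128, 130.3 and 132 TPM on day 8 and 440.0, 435 and 438 TPM on day 10 and, with shared reads, at 154, 170.1 and 159.6 TPM on day 8 and 395, 398 and 399 TPM on day 10. Cdkn1c, an imprinted inhibitor of cyclin-dependent kinases, was at 86.7, 84.9 and 89.4 TPM on day 8 and 246, 252 and 247 TPM on day 10, a change of 1.57 (1.501 to 1.63). Dlk1, a Notch-like inhibitor of adipocyte differentiation, was at 29.9, 32.8 and 38.2 TPM on day 8 and 133, 128 and 126 TPM on day 10. H19 and Grb10 had log2 changes of 0.31 (0.29 to 0.33) and 0.304 (0.28 to 0.33). The other cyclin-dependent kinase inhibitors and p53 targets had no called gene among 10 and a median of -0.204, and Cdkn1a, at 1222, 1232 and 1214 TPM on day 8 and 681, 667 and 672 TPM on day 10, had a log2 change of -0.82 (-0.86 to -0.78).

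Of 9 adipocyte transcription factors, 3 were called higher, with a median of 0.64. Pparg, the master regulator of fat cells, was at 3.77, 5.21 and 3.75 TPM on day 8 and 12.96, 14.8 and 12.7 TPM on day 10, and Cebpa at 3.92, 3.15 and 2.93 TPM on day 8 and 13.3, 11.98 and 14.3 TPM on day 10, with Klf15 at 6 and 24 counts. Ebf1, at 49.2, 56.05 and 51.9 TPM on day 8 and 115, 115 and 112 TPM on day 10, had a log2 change of 0.996 (0.94 to 1.05), at the threshold but not past it. In the list of lipid storage and fatty acid synthesis, 17 of 25 were compared and 6 were called higher, with a median of 0.42. The summed level of the list did not rise with the median, at 402 to 462 TPM on day 8 and 407 to 422 TPM on day 10. Lpl, the lipase that releases fatty acids from lipoproteins, was at 16.9, 17.2 and 19.7 TPM on day 8 and 97.9, 99.8 and 97.03 TPM on day 10 with shared reads, a change of 2.29 (2.197 to 2.38), and Cd36, a fatty acid transporter, at 0.525, 0.415 and 0.373 TPM on day 8 and 3.28, 2.27 and 1.67 TPM on day 10. Fabp4 with 11 and 24 counts, Car3 with 35 and 93, Gpd1, which shares reads, with 21 and 60 and Plin4 with 51 and 122 were the other members called, and Car3 went on to 338 CPM and Fabp4 to 44.5 CPM by day 18. The fatty acid synthesis enzymes did not share this direction, with -0.35 (-0.41 to -0.29) for Fasn and -0.51 (-0.57 to -0.46) for Scd1, which shares reads.

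The complement system coats targets for uptake by phagocytes. Outside the C1q subunits, 7 of 9 compared genes were called higher, with a median of 1.32, and 8 of 9 were above 0. C3, the central component, was at 3.64, 3.57 and 3.84 TPM on day 8 and 27.7, 20.7 and 21.9 TPM on day 10, 6.05-fold higher with a change of 2.597 (2.43 to 2.76). The proteases of the early steps, C1s with shared reads and C1ra, were at 29.8, 36.2 and 29.01 TPM on day 8 and 71.1, 59.1 and 66.004 TPM on day 10 and at 16.4, 15.3 and 17.3 TPM on day 8 and 33.3, 31.5 and 33.8 TPM on day 10. Serping1, which inhibits those proteases, was at 107, 107 and 100.1 TPM on day 8 and 287, 291 and 299.8 TPM on day 10. Cfb and C4b, both with shared reads, had log2 changes of 1.32 (1.07 to 1.57) and 1.38 (1.18 to 1.57).

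Markers of other cell types were read beside these results. Of 15 monocyte and macrophage genes 11 were compared, all 11 were above 0 and 8 were called higher, with a median of 1.52. Their summed level was 74.7 to 83.1 TPM on day 8 and 221 to 229 TPM on day 10, and the day 18 library held 2542 TPM. Lyz2, a lysozyme with shared reads, made up most of it at 59.1, 65.4 and 62.04 TPM on day 8 and 169, 173 and 175 TPM on day 10. The mannose receptor Mrc1 was at 0.675, 0.434 and 0.504 TPM on day 8 and 3.703, 2.93 and 3.73 TPM on day 10, Cd68 at 2.402, 2.45 and 4.197 TPM on day 8 and 10.3, 15.1 and 13.8 TPM on day 10, and Emr1, the F4/80 antigen, at 14 and 43 counts. Csf1r, the receptor on which macrophages depend, with shared reads, had a log2 change of 0.63 (0.11 to 1.14), and Ptprc, the CD45 antigen, had 8 and 19 counts. Lpl, Cd36, C3 and other complement and lipid genes above are also made by macrophages. The cells had been sorted for the fluorescent protein before the culture, and the part of macrophage RNA in these values was not tested. Class II histocompatibility genes gave 3 called higher of 5 compared and a median of 1.03, with the invariant chain Cd74 at 0.638, 0.151 and 0.466 TPM on day 8 and 6.87, 8.56 and 10.01 TPM on day 10 on 8 and 124 counts, a change of 4.45 (3.43 to 5.69).

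Markers of other lineages were mostly low. The 6 genes listed for each of mast cells, neutrophils, lymphocytes and erythroid cells had no member with 30 counts, and the neutrophil genes had 0 counts on both days. The endothelial genes Emcn and Cldn5 had 0 counts and Pecam1 5 and 3, but Cdh5 and Tek were called higher, with 1.57 (1.001 to 2.16) and 1.32 (1.07 to 1.56), and Esam lower with 26 and 4 counts, with a median of 0.65 over 4 genes. For Schwann cells, 2 of 3 compared were called higher (median 1.18), Cdh19 among them with 5 and 25 counts, while Sox10 had 5 and 7. In skeletal muscle the regulators Myog and Myod1 and the kinase Ckm had 0 counts, and Acta1 and Chrna1, the latter with shared reads, were called lower with 88 and 18 and with 122 and 18 counts, with a median of -1.79 over 3 genes. Myh1, a myosin heavy chain with shared reads, was among the low genes with the largest rises at 21 and 158 counts.

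Osteoclast genes and the signals that osteoblasts send to osteoclasts are listed separately. Of 5 osteoclast genes compared, Acp5 was called higher with 107 and 152 counts, at the threshold with 1.002 (0.64 to 1.37), and Ctsk had a log2 change of 0.59 (0.51 to 0.67), where the median was 0.22. Calcr and Tm7sf4 had 0 counts. Of 10 genes of osteoclast support, 4 were called lower and 1 higher, with a median of -0.36. The summed level of the list was higher on day 10, at 650 to 682 TPM on day 8 and 778 to 790 TPM on day 10. Tnfsf11, RANKL, which drives osteoclast formation, was at 2.25, 2.04 and 3.26 TPM on day 8 and 0.8397, 0.793 and 0.903 TPM on day 10 with a change of -1.57 (-2.31 to -0.89). Il6 had 36 and 3 counts, a change of -3.09 (-5.43 to -1.43), and Lif was at 3.396, 4.15 and 2.44 TPM on day 8 and 0.515, 0.227 and 0.395 TPM on day 10, 7.697-fold lower, and these cytokines fell beside Ptgs2. Cxcl12, which retains blood precursors in the marrow, was the one called higher at 168, 173 and 175 TPM on day 8 and 397, 386 and 379.6 TPM on day 10. Csf1 and Vcam1 had log2 changes of -0.25 (-0.29 to -0.21) and -0.11 (-0.16 to -0.06). Among 8 chemokines compared (median -0.08) Ppbp, Ccl2 and Ccl7 were called lower, with Ccl2 at 50.8, 47.3 and 44.02 TPM on day 8 and 17.997, 15.8 and 18.9 TPM on day 10 and Ccl7 at 68.7, 77.4 and 73.7 TPM on day 8 and 30.9, 26.3 and 33.9 TPM on day 10. Of 21 immediate early genes (median -0.397) Fosl1, a subunit of AP-1 with shared reads, was called lower at 9.64, 9.68 and 10.2 TPM on day 8 and 0.6298, 1.57 and 1.298 TPM on day 10, a change of -3.04 (-3.69 to -2.44), Fosb was called higher on 21 and 30 counts, and Egr1 had a log2 change of -0.804 (-0.87 to -0.74).

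Surface markers of stromal progenitors were divided. Of 13, Cd44, Mcam and Lepr were called lower and Ngfr higher, with a median of 0.002. Cd44, a hyaluronan receptor, was at 257, 262 and 259 TPM on day 8 and 111, 112 and 116 TPM on day 10, a change of -1.11 (-1.16 to -1.07). Lepr, the leptin receptor, with shared reads, was at 9.59, 7.68 and 8.17 TPM on day 8 and 4.45, 3.12 and 3.104 TPM on day 10, and Mcam at 3.55, 4.21 and 6.08 TPM on day 8 and 1.49, 1.17 and 1.51 TPM on day 10. Ngfr, the low-affinity nerve growth factor receptor, was at 0.244, 0.283 and 0.317 TPM on day 8 and 2.52, 2.66 and 1.9003 TPM on day 10, a change of 3.15 (2.42 to 3.95). Ly6a, the Sca-1 antigen with shared reads, had a log2 change of -0.896 (-0.95 to -0.85) and Thy1 one of -0.36 (-0.41 to -0.32).

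The study's own interest was in genes near signals for bone mineral density, and mouse counterparts of those genes formed a list of 25, of which 21 were compared, with a median of 0.26. Called higher were Rspo3, given above, and Pthlh with 15 and 26 counts, and called lower were Tnfsf11 and Galnt3, the latter with 54 and 16 counts. Rin3 was at 12.5, 22.7 and 15.1 TPM on day 8 and 9.96, 15.2 and 19.9 TPM on day 10, a change of -0.08 (-0.29 to 0.12) with overlapping lanes. Of its neighbours, Golga5 had a log2 change of -0.29 (-0.46 to -0.12), Lgmn one of 0.28 (0.14 to 0.42) and Itpk1 one of 0.8003 (0.24 to 1.36), while Slc24a4 had 1 and 2 counts and Chga 0. Lrp5, a Wnt co-receptor, was at 21.6, 21.1 and 23.1 TPM on day 8 and 28.8, 27.4 and 27.6 TPM on day 10 with a change of 0.397 (0.29 to 0.502), Eya4 had a log2 change of 0.71 (0.59 to 0.82), and Tnfrsf11b, the decoy receptor for RANKL, one of -0.47 (-0.68 to -0.27). Wnt16 had a log2 change of 0.75 (0.26 to 1.23) on 68 and 81 counts.

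**Figure D5:**
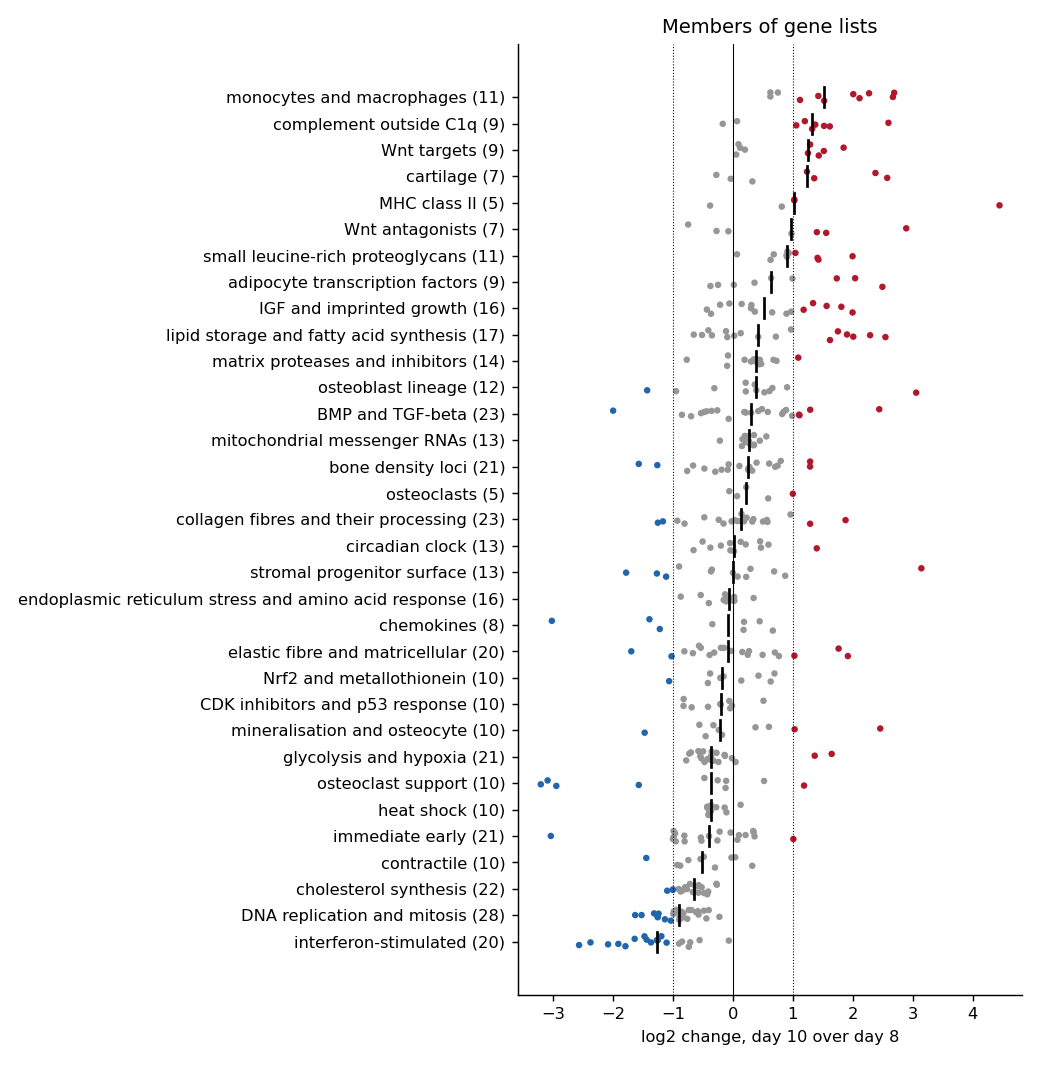
The horizontal axis is the log2 change of day 10 over day 8, each point is 1 gene of the list named on the left, the number of genes compared is in brackets, and the black bar is the median of the list. Called genes are red when higher and blue when lower, the dotted lines mark 2-fold, and lists with 5 or more genes compared, other than ribosomal and respiratory chain genes, are ordered by their median, from monocytes and macrophages at 1.52 to interferon-stimulated genes at -1.26.

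The remaining lists held few called genes. None was called among 81 cytosolic ribosomal protein genes, with a median of -0.102, nor among 13 mitochondrial messenger RNAs (0.27), 10 heat shock genes (-0.36) or 16 genes of endoplasmic reticulum stress (-0.07). Of 79 nuclear genes of the respiratory chain 1 was called, Cox4i2 on 13 and 22 counts, with a median of -0.12. Among 10 contractile genes (median -0.51) Myh11, the smooth muscle myosin, was called lower with -1.44 (-1.69 to -1.21), and Acta2 had a log2 change of -0.54 (-0.56 to -0.52). Nqo1, an oxidoreductase of the Nrf2 response (median -0.18 over 10 genes), was called lower with -1.06 (-1.28 to -0.85), and the clock output gene Hlf (median 0.02 over 13 clock genes) higher with 1.401 (1.06 to 1.75) on 110 and 206 counts. The TPM of Hlf ran the other way in 2 of 3 lanes, at 24.99, 1.0005 and 22.1 TPM on day 8 and 2.71, 2.59 and 3.69 TPM on day 10. TPM also depends on the isoform to which reads are assigned, and its part here was not tested. Among protein-coding genes under 20 CPM with 100 or more counts, the largest falls were those of Apol9b, given above, of Lrp2, an endocytic receptor at 318 and 27 counts with -3.06 (-3.69 to -2.49), and of Gm9843, which shares reads and had 189 counts on day 8 and 0 on day 10, at least 44.7-fold lower against a floor of 3 counts, while its exact interval, which includes the counting error of day 8, ended at a log2 change of -5.17. Gm9843 was at 0.151 CPM on day 12 and 0 on day 14, but was back at 4.84 CPM on day 16 and 1.94 CPM on day 18. Gm14434, with shared reads, was higher on day 10 at 27 and 179 counts, but its lanes ran from 0 to 4.76 TPM on day 8 and from 6.06 to 18.8 TPM on day 10, and from day 6 to day 12 its log2 change was -0.60.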

How the data were processed

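RNA of each time point was amplified (NuGEN Ovation), made into TruSeq libraries and sequenced. According to the submitters' processing notes, the authors aligned reads with Bowtie 0.12.9 and estimated expression with RSEM 1.2.8 on NCBIM37. The study's methods name another release of RSEM. The deposited tables hold estimated counts per gene, which RSEM divides among genes that share reads, and TPM values, which the authors scaled to 1000000 per profile. The RNA was amplified and the reads carried no molecular identifiers, so the intervals cover the counting error of reads only and not that of molecules.

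Estimated counts of the 3 lanes of a day were summed and rounded, and genes with 30 or more counts over the 6 profiles were kept. Library factors were edgeR 4.0.16 upper-quartile factors over 9 libraries (R 4.3.3), and each ratio has an exact Clopper-Pearson 95% interval (scipy 1.17.1). A gene was called at 2-fold with its interval clear of 0. A natural spline in day with 5 residual degrees of freedom was tested with edgeR's quasi-likelihood method and Benjamini-Hochberg adjustment over all genes. Genes whose summed counts were not whole within 0.01 are described as sharing reads. Of the gene IDs, 37205 had a symbol and 786 did not.

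Named genes were the 12 largest called changes each way among protein-coding genes of 20 CPM or more, the 3 largest each way among lower genes with 100 or more counts, and called or leading members of 42 gene lists. The comparison, its members and the lists were chosen with earlier results of these data known, and the motifs with the values known. Scripts were tested on simulated data. Samples with the same lane number on both days did not deviate together, with correlations of -0.0249, 0.00766 and -0.0691. Some members of the lists and of the largest changes are counted but not reported here by name.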

Additional observations from a re-analysis of the deposited data

How the results depend on the processing

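Of the 13620 genes compared, 1263 were called (737 higher, 526 lower). A filter of 100 counts gave 717 (424 and 293) of 11805 genes, and a filter of 1 count gave 1995 (1175 and 820) of 19893. Over the same 13620 genes, 514 (348 and 166) were called with the whole interval past 2-fold. A threshold of 1.5-fold gave 2669 (1501 and 1168) of them. With the 9836 genes of whole-number counts alone 339 were lower, and 578 were higher. Days 6 and 12 in place of days 8 and 10, an alternative chosen after seeing the data, gave 3368 (2050 and 1318) of 14803 genes. Without 1 lane number the counts were 1093 to 1121 either way, 623 to 647 higher and 465 to 482 lower, of 12999 to 13034 genes. The curve in day, fitted to 16256 genes, gave 5288 genes with an edgeR adjusted p under 0.05 (2882 higher, 2406 lower), 5100 to 5128 without 1 lane number, and 3750 to 6104 without 1 time point, lowest without day 12. A curve of 2 degrees of freedom gave 9332 (5075 and 4257). All 27 profiles with the replicate block gave 9434 (4867 and 4567) and without it 9503 (4898 and 4605), where lanes count as samples. The lane numbers did not pair the days. The fitted change turned positive with 2 degrees of freedom for Isg15 (0.19), Ifi44 (0.15), Ifit3 (0.44) and I830012O16Rik (0.36), and negative for Gm14434 (-0.037), and the cause was not tested. From day 6 to day 12 Gm14434 was at -0.60. Over the other alternatives, the log2 changes of the genes named for their size fell outside the printed interval 17 times and inside it 244 times. Among those outside were Sfrp2 at 2.80 with total counts, and Prlr at 3.03 and Pgm5 at 2.36 with TPM. Over the other scalings the median of all genes ran from -0.0743 to 0.0185 and the share of calls that were higher from 50.0% to 59.9%, beside 58.4%. Under other scalings the medians of the circadian clock and stromal progenitor lists crossed 0. The stromal progenitor median also crossed 0 without any 1 lane number (-0.0053, -0.0039 and -0.022) and with days 6 and 12 (-0.44). The elastic fibre median crossed 0 with genes of whole-number counts alone (0.16) and with days 6 and 12 (0.17). With whole-number counts alone, medians moved from 0.98 to 0.45 for Wnt antagonists, 1.25 to 0.73 for Wnt targets and 0.42 to 0.13 for lipid storage. Those of chemokines moved from -0.08 to -0.78 and of monocytes and macrophages from 1.52 to 2.01. With TPM the medians were 1.05 for monocytes and macrophages, 1.04 for complement, 0.298 for adipocyte transcription factors and 0.54 for osteoclasts. Lipid storage was at 0.25 without lane number 1 and 0.21 without lane number 3. Outside days 6 and 12, 133 list medians moved by at least their spread between lanes and 247 did not. Depth limits both days: a gene with 0 counts may still be at 0.101 CPM on day 8 or 0.134 CPM on day 10.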
